A study of Zea mays with 12 samples.

Results

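Maize of a disease-susceptible and a disease-resistant class was sampled with and without the Bacillus strain BV-3, and the results below concern how far the response of each gene to BV-3 differed between the classes. The measure is the interaction, the log2 fold change of BV-3 against CK in resistant maize minus the same change in susceptible maize, so that a positive value means a change with BV-3 that lay higher in resistant maize. All 12 libraries of the series entered, 3 for each combination of treatment (CK or BV-3) and class (susceptible or resistant). CK carries no BV-3 treatment in the labels, and the sampled material is given as the whole body of the plant. Titles of the CK susceptible libraries carry the number 986 and those of the CK resistant libraries 801, and the labels do not say what the numbers stand for. The BV-3 titles carry no such number but gan for susceptible and kang for resistant. The sources used here give no plant age, inoculation or harvest time, and do not say whether a library pools several plants. Of 52932 genes in the deposited table, 34291 passed the filter on low counts and were tested.

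Bacillus strains of this kind live on roots and in plant tissue, and are known to prime defence through jasmonate, ethylene and salicylate signalling and to alter growth, nutrient uptake and water relations. A root bacterium can meet different immune receptors and hormone states in different host genotypes, and an interaction asks for each gene whether both genotypes answered alike. A gene can enter such a list in 3 ways, by changing in opposite directions, by changing in susceptible maize with little change in resistant maize, or by the reverse.

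Libraries held 27.0 to 37.8 M counts and 33605 to 37691 genes with a count. Among the BV-3 libraries, 246 genes marked the susceptible class and 339 the resistant class, being present in every library of one class and nearly without counts in the other. Of the libraries labelled CK susceptible, library 1 held 98.0% of the markers of its class and 0.59% of those of the other, whereas library 2 held 0.813% and 94.4% and library 3 held 1.63% and 95.0%. Libraries 2 and 3 thus go against their label and carry the markers of the resistant class, as all libraries labelled CK resistant do. The second library labelled CK resistant stood apart in tissue markers. Its summed FPKM of 112 leaf marker genes was 1883 against 14729 to 53920 in the others, and that of 134 markers of dividing tissue was 2552 against 505 to 2125. FPKM is the authors' fragment count scaled to gene length and to mapped fragments. Since tissues were sampled in bulk, fewer cells of a type and less RNA per cell cannot be told apart.

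No gene passed an adjusted p under 0.05 for the interaction in edgeR's quasi-likelihood test (0.0% of the genes tested; smallest adjusted p 0.232). At an unadjusted p under 0.05 the same test listed 4688 genes, 13.7% of those tested, of which 2986 (8.71%) had a positive and 1702 (4.96%) a negative interaction. At an unadjusted p under 0.01 the numbers were 1057 (3.08%) and 367 (1.07%). DESeq2 called 1706 genes, 1268 with a positive and 438 with a negative interaction, and limma on log2(FPKM + 1) called 2. Those 2 were the RING-H2 finger protein ATL79 (Zm00001eb229500) and abscisic stress-ripening protein 2 (Zm00001eb131500). ATL79 was listed at 0 FPKM in all 9 libraries outside the BV-3 susceptible group and at 3.13, 5.44 and 5.39 there, and both genes are markers of the susceptible class. Because no interaction passed in edgeR, every gene below is given by its values, and the unadjusted p under 0.01 serves only to choose what is described. Below, passing refers to edgeR. Some genes named below are among the DESeq2 calls, such as MYB-IF25 (adjusted p 7.9e-08 in DESeq2) and RPM1 (0.000312). Others are not, such as mitogen-activated protein kinase kinase kinase 1 (0.0948).

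The separate changes that the interaction compares were unequal in number. In susceptible maize 2125 genes (6.2% of those tested) passed an adjusted p under 0.05, 789 (2.3%) higher and 1336 (3.9%) lower with BV-3, and in resistant maize 0 passed (0.0%) in edgeR, where 3452 (10.1%) had an unadjusted p under 0.05, against 1044 called in DESeq2 and 6 in limma on log2(FPKM + 1). The susceptible calls were not stable. Their number was 7139 without CK susceptible library 1, 5493 without CK resistant library 2, and between 0 and 109 without any 1 of the other 10 libraries. It was 0 without CK susceptible libraries 2 and 3. Below, "rose" and "fell" are used only of susceptible changes that passed with all 12 libraries. The difference between the classes under BV-3 compares the BV-3 libraries alone, but its spread was estimated over all 12 libraries, CK included. It passed for 0 genes (0.0%) in edgeR and had an unadjusted p under 0.05 for 7522 (21.9%). The 585 class markers were among the genes that did not pass, so the 0 does not show that the classes were alike. Sorted by the size of both changes, 1290 genes had a log2 change of at least 1 in both classes in opposite directions, 9520 in susceptible maize alone, 3522 in resistant maize alone and 4153 in the same direction in both, and 15806 stayed under 1 in both. The BV-3 and CK libraries did not overlap for 32.7% of genes in susceptible and 17.2% in resistant maize. They did not overlap in both classes, and in opposite ways, for 256 genes (0.747%), and in the same way for 1893 (5.52%). Genes with a negative interaction at p under 0.01 included 1 class marker among 367, and those with a positive one included 311 among 1057 (29.4%, against 1.71% of all genes tested). Markers of the susceptible class have almost no counts in either resistant group, so edgeR could hardly estimate their interaction (-10.4 with an SE of 18674.38 for ATL79). The 1 among 367 therefore does not show that negative interactions are free of genes present in 1 class only.

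**Figure D1:**
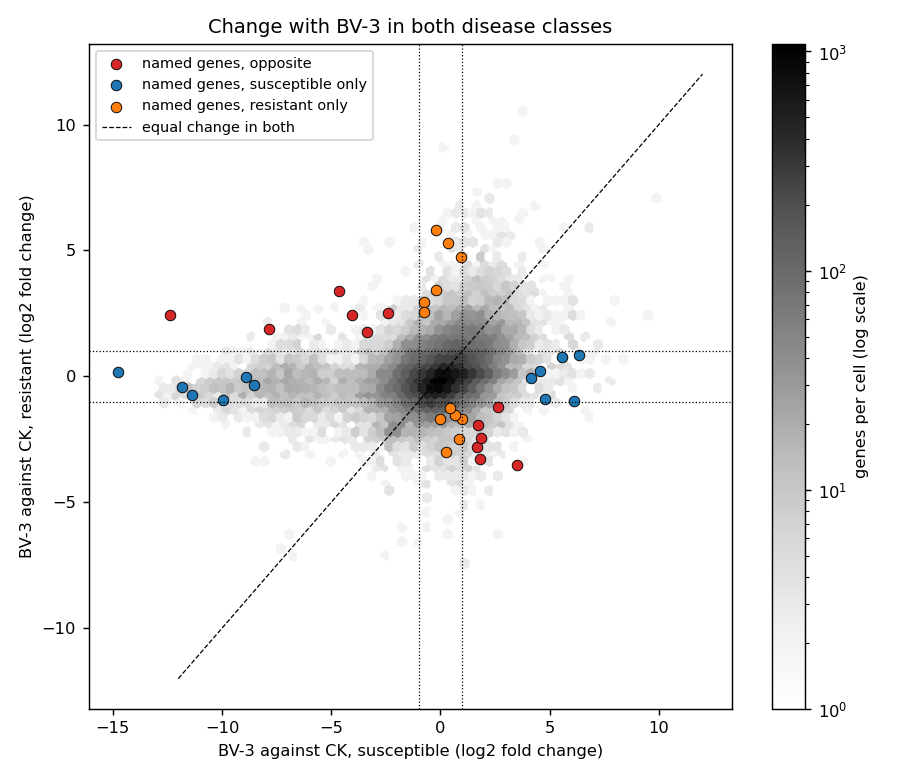
Log2 fold change of BV-3 against CK in susceptible (horizontal) and resistant maize (vertical) for the 34291 genes tested, as grey cells whose shade gives the number of genes on a log scale, with the genes named by rule as coloured points by class. Dotted lines mark a log2 change of 1, and the grey band reaching far to the left near 0 on the vertical axis holds genes with large negative changes in susceptible maize and little change in resistant maize.

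Genes described by rule had an informative name, a mean of at least 5 FPKM in some group, an unadjusted p under 0.01 and BV-3 and CK libraries that did not overlap where the log2 change was at least 1. There were 357 such genes (1.04%). The 6 with the largest interaction are named in each direction and class, beside members of functional gene lists with the smallest p. Values in brackets after a gene are its identifier in the deposited table.

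Among genes higher with BV-3 in susceptible and lower in resistant maize, the smallest p of the interaction belonged to the R2R3 MYB transcription factor MYB-IF25 (Zm00001eb340000), a member of a plant family of regulators of secondary metabolism and development. Its FPKM was 3.47, 2.77 and 2.72 in CK susceptible and 6.54, 10.7 and 15.9 in BV-3 susceptible libraries, and 6.6, 12.4 and 5.56 in CK resistant and 1.31, 2.03 and 0.964 in BV-3 resistant libraries. Every BV-3 susceptible library lay above every CK susceptible one, and every BV-3 resistant library below every CK resistant one. The log2 changes were 1.86 ± 0.43 (SE) and -2.46 ± 0.45, and their difference was -4.32 ± 0.62 with an unadjusted p of 2.52e-05 in edgeR. Against CK susceptible library 1 alone, the one that carries the markers of its class, the difference of log2(FPKM + 0.1) was 1.64, and under BV-3 the resistant class lay -3.17 from the susceptible one.

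HVA22-like protein e (Zm00001eb112930), of a family of abscisic acid and stress-induced membrane proteins first described in barley, measured 9.66, 3.85 and 2.94 FPKM in CK susceptible and 23.5, 51.2 and 37.9 in BV-3 susceptible libraries. Resistant maize gave 32.2, 41.3 and 45.0 in CK and 16.5, 25.3 and 9.02 in BV-3 libraries. The groups did not overlap in either class, and the levels of CK resistant and BV-3 susceptible libraries overlapped. Its interaction was -3.87 ± 0.68, from log2 changes of 2.65 and -1.22. Its rise in susceptible maize passed the test on its own, as did that of MYB-IF25.

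Probable protein phosphatase 2C 37 (Zm00001eb419870) is of a family whose members include the phosphatases that hold abscisic acid signalling off until its receptor binds them. It stood at 0.237, 1.76 and 0.653 FPKM in CK susceptible and 2.38, 2.35 and 4.75 in BV-3 susceptible libraries. The resistant class stood at 25.8, 9.3 and 39.0 without and 1.4, 5.84 and 0.474 with BV-3. The CK resistant libraries were the highest of the 12, and the BV-3 libraries of both classes overlapped. The interaction was -5.10 ± 1.21, the log2 difference between the classes under BV-3 was -0.60, and without CK susceptible libraries 2 and 3 the interaction was -6.70.

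The other 3 genes of this kind with the largest interaction were a ubiquitin-protein ligase (Zm00001eb311590; -4.47 ± 0.77), a protein disulfide isomerase (Zm00001eb369590; -3.66 ± 0.66), which forms disulfide bonds in proteins of the secretory pathway, and FCS-like zinc finger 1 (Zm00001eb165470; -7.05 ± 1.74). The ligase measured 29.0, 9.01 and 42.3 FPKM in CK resistant and 3.96, 4.37 and 2.51 in BV-3 resistant libraries, against 5.2, 2.47 and 3.38 without and 12.7, 15.9 and 7.04 with BV-3 in the susceptible groups. The isomerase measured 50.6, 25.5 and 88.6 without and 13.5, 21.8 and 7.15 with BV-3 in resistant, and 10.6, 11.6 and 5.82 without and 26.6, 33.0 and 31.7 with BV-3 in susceptible libraries. All 3 had non-overlapping groups in both classes. Compared with the first CK susceptible library alone, the susceptible differences were 1.18 for the ligase, 1.51 for the isomerase and 2.49 for the zinc finger gene, whose sign the choice of genes without overlap fixes. Under BV-3 the resistant class lay -1.42 (HVA22-like protein e), -1.94 (ligase), -1.40 (isomerase) and -0.98 (zinc finger gene) from the susceptible one on the log2 scale. None of these interactions passed the adjusted threshold. Of the 10 genes of this kind under the rule, 8 had a susceptible change of at least 1 against the first CK susceptible library alone. The choice used that library too, so it fixes the sign of this change and favours a large one.

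The list of abscisic acid genes leaned the same way, largely by way of its protein phosphatases 2C. Of 179 tested genes of abscisic signalling, dehydrins and LEA proteins, 27 (15.1%) had a negative interaction at an unadjusted p under 0.05, against 4.96% of all genes, and 14 (7.82%) a positive one, against 8.71%. Of the 179, 57 (31.8%) were higher in susceptible and lower in resistant maize by sign, against 21.9% of all genes, and the list's median interaction was -0.472, against -0.132. The protein phosphatases 2C, all taken by name whether or not they act in abscisic signalling, made up 108 of the list. They held 19 of those 27 negative interactions and 6 of the 14 positive ones. Protein phosphatase 2C 50 (Zm00001eb356420) measured 79.7, 39.0 and 155 FPKM in CK resistant and 28.8, 43.7 and 25.3 in BV-3 resistant libraries, and 21.9, 18.9 and 15.2 without and 33.6, 41.9 and 36.1 with BV-3 in the susceptible ones. A gene described as protein phosphatase 2C 68 (Zm00001eb098220) measured 5.47, 4.14 and 25.9 without and 1.97, 1.67 and 0.887 with BV-3 in resistant maize, and 5.49, 4.16 and 1.76 without and 5.0, 12.0 and 11.3 with BV-3 in susceptible maize. CK resistant library 3 was the highest of the 12 for both genes, and library 2 was the lowest CK resistant one. The median interaction of the whole list was -0.379 without CK susceptible libraries 2 and 3 and -0.432 without CK resistant library 2. For its 28 dehydrin and LEA genes the median was -0.595 with all libraries and -0.0512 without CK susceptible libraries 2 and 3. It was 0.0596 when CK resistant library 2 was left out as well. For the protein phosphatases 2C the same 3 values were -0.462, -0.382 and -0.285.

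Heat stress factors and kinase genes had more negative than positive interactions at an unadjusted p under 0.05. Of 115 heat shock genes, 17 (14.8%, against 4.96% of all genes) had a negative interaction at p under 0.05 and 3 (2.61%, against 8.71%) a positive one, and 43 (37.4%) were higher in susceptible and lower in resistant maize by sign. Heat stress transcription factors, which switch on chaperone genes, made up 27 of the list and 7 of the 17. In Heat stress transcription factor A-3 (Zm00001eb242480) library 3 carried the change, with 0.713, 0.622 and 12.8 FPKM in the BV-3 susceptible libraries against 0.342, 0.303 and 0.192 in CK. The list's median interaction of -0.636 became 0.119 when CK susceptible libraries 2 and 3 and CK resistant library 2 were left out, and that of the factors became -0.385. Mitogen-activated protein kinase cascade genes, which relay signals from immune receptors, had 10 of 75 members (13.3%) with a negative interaction at p under 0.05, against 4.96% of all genes, and 5 (6.67%) with a positive one, against 8.71%. Mitogen-activated protein kinase kinase kinase 1 (Zm00001eb011480) measured 20.6, 5.4 and 8.58 FPKM in CK susceptible and 29.0, 32.1 and 23.1 in BV-3 susceptible libraries, against 13.7, 7.75 and 8.95 without and 6.5, 6.86 and 6.0 with BV-3 in resistant maize. Its susceptible difference against CK susceptible library 1 alone was 0.45. The interaction of this gene was -1.84, and -0.99 without CK susceptible libraries 2 and 3. The sty1-like kinase genes Zm00001eb160870 and Zm00001eb290260 went the other way, at 6.80 and 6.82. Both were at 0 FPKM in CK susceptible library 1 and in the BV-3 susceptible libraries. Expansin-B4 (Zm00001eb050500), a protein that loosens the cell wall, had an interaction of -2.70 ± 0.58 with groups that did not overlap in either class. Other expansins went the other way, with 4.22 ± 0.96 for beta-expansin 1a (Zm00001eb391450) and 3.0 ± 0.87 for alpha expansin 1 (Zm00001eb149460). Of 131 expansin, xyloglucan enzyme and cellulose synthase genes, 5 (3.82%, against 4.96% of all genes) had a negative interaction at p under 0.05. A positive one was found in 7 (5.34%, against 8.71%).

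**Figure D2:**
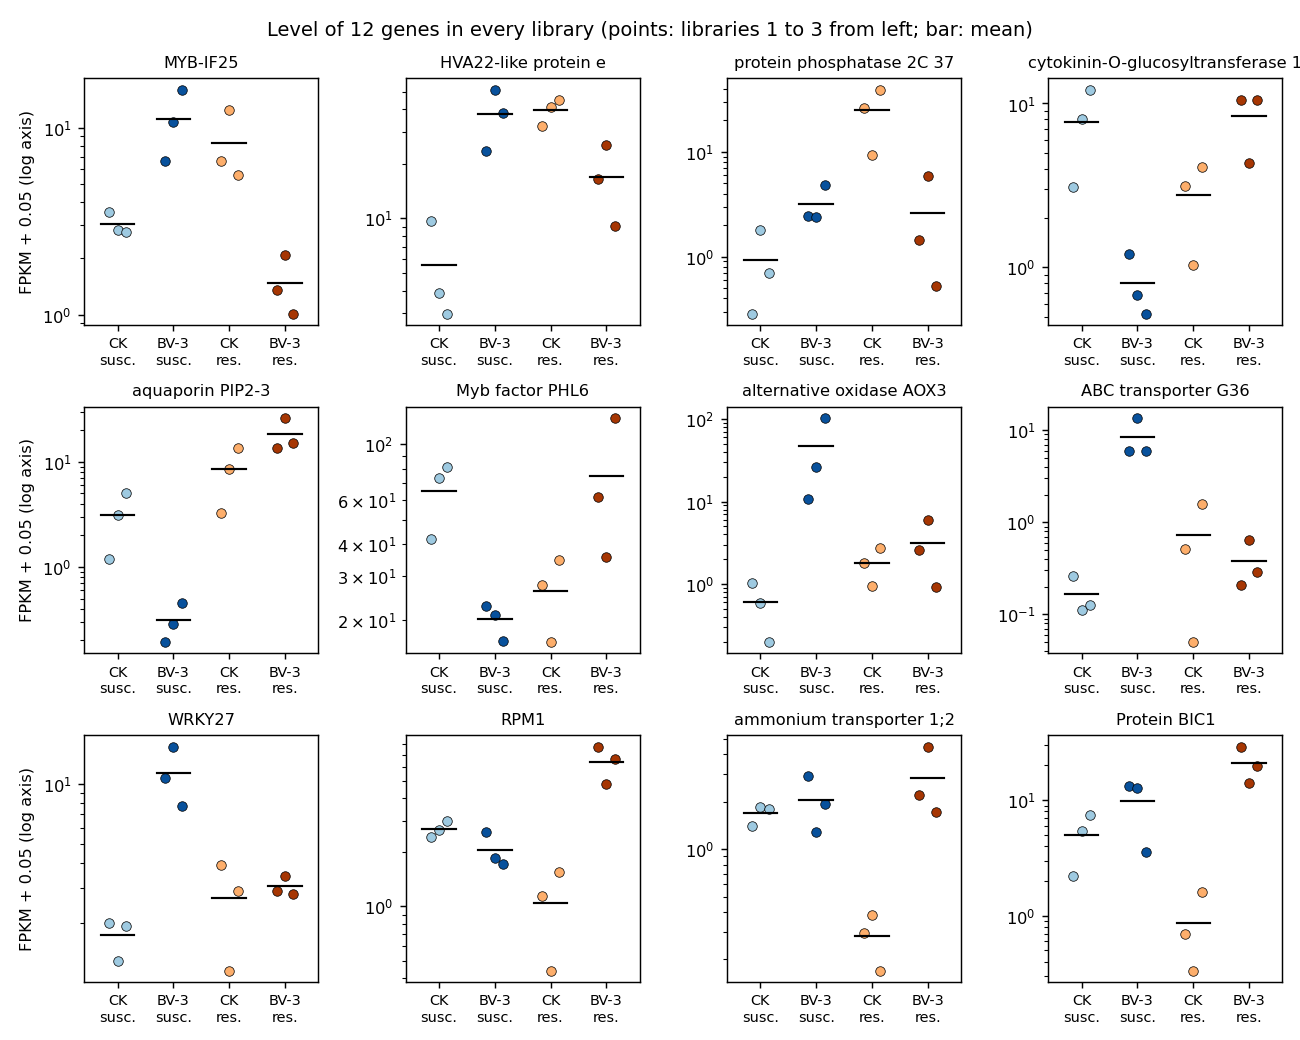
Level of 12 of the described genes in each of the 12 libraries, as FPKM + 0.05 on a log axis, with 3 points a group for libraries 1 to 3 from left and a bar at the group mean. The first 3 panels show genes that were higher with BV-3 in susceptible and lower in resistant libraries, the next 3 the reverse, and the last 6 genes with a change mainly in 1 class, AOX3, ABC transporter G36 and WRKY27 in susceptible maize and RPM1, the ammonium transporter and BIC1 in resistant maize.

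The reverse pattern was lower with BV-3 in susceptible and higher in resistant maize, and the genes named for it have mixed functions. Cytokinin-O-glucosyltransferase 1 (Zm00001eb170440), an enzyme that stores cytokinin as an inactive glucoside, measured 3.03, 7.99 and 12.1 FPKM in CK susceptible and 1.16, 0.63 and 0.472 in BV-3 susceptible libraries. Resistant libraries held 3.07, 0.978 and 4.04 in CK and 10.4, 4.31 and 10.4 in BV-3 libraries. The groups did not overlap in either class, the interaction was 5.11 ± 0.98, and the fall in susceptible maize passed the test. Against the first CK susceptible library alone the susceptible difference was -1.87, and without CK susceptible libraries 2 and 3 the interaction was 3.80.

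Aquaporin PIP2-3 (Zm00001eb185300), a water channel of the plasma membrane, fell with BV-3 in susceptible maize from 1.14, 3.06 and 4.95 FPKM to 0.143, 0.236 and 0.405. Levels in resistant maize were 3.24, 8.58 and 13.4 in CK and 13.5, 26.0 and 15.1 in BV-3 libraries. The BV-3 susceptible libraries were the lowest of the 12 and did not overlap with any other group, and the interaction was 4.71 ± 0.89. The highest CK resistant library lay close under the lowest BV-3 resistant one.

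Myb factor PHL6 (Zm00001eb227200), a relative of the PHR factors that govern the phosphate starvation response, had 41.8, 73.4 and 80.8 FPKM in CK susceptible and 22.8, 20.9 and 16.5 in BV-3 susceptible libraries. Resistant maize had 27.4, 16.3 and 34.6 without and 61.6, 35.6 and 127 with BV-3. The interaction was 3.52 ± 0.78, and the second library was the lowest in both resistant groups. Cysteine-rich receptor-like protein kinase 10 (Zm00001eb323420), of a family of cell surface receptors in immunity, had 1.0, 4.39 and 3.43 FPKM without and 0.492, 0.386 and 0.119 with BV-3 in susceptible maize, and 1.42, 0.242 and 1.66 without and 3.35, 3.81 and 7.08 with BV-3 in resistant maize. Its interaction was 5.27 ± 1.14, with no overlap in either class. The chloroplastic malate dehydrogenase (Zm00001eb328310; interaction 3.96 ± 0.97) and the auxin efflux carrier component 5a (Zm00001eb143310; 2.94 ± 0.65) showed the same non-overlapping order.

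G2-like 1 (Zm00001eb371980), whose family includes regulators of chloroplast development, measured 11.2, 32.9 and 37.2 FPKM in CK susceptible, 6.52, 7.19 and 3.12 in BV-3 susceptible, 14.1, 1.3 and 10.5 in CK resistant and 45.9, 16.1 and 77.3 in BV-3 resistant libraries. Its interaction was 4.93 ± 1.19. In 4 further genes the CK susceptible level came mostly from libraries 2 and 3. Phosphatase phospho 1 (Zm00001eb361620) measured 4.93, 55.1 and 104 FPKM in CK susceptible and 4.19, 3.56 and 2.26 in BV-3 susceptible libraries, and its interaction of 6.48 ± 1.27 was 3.03 without those libraries. The interactions of verprolin (Zm00001eb213560) and RADIALIS-like 3 (NewGene_9202) moved from 8.05 to 6.03 and from 9.76 to 6.03. Cyclin-A3-2 (NewGene_24712), a marker of the resistant class, had 0.162, 13.3 and 14.5 FPKM in CK susceptible and no counts in BV-3 susceptible libraries. It was at least 214-fold lower there than the CK susceptible mean and at least 4.09-fold lower than the first CK susceptible library, taking 3 counts per library as the floor. Under BV-3 the resistant class lay 3.28 above the susceptible one on the log2 scale for the cytokinin enzyme, 3.00 for G2-like 1, 2.60 for phosphatase phospho 1 and 5.21 for verprolin. None of these interactions passed the adjusted threshold. Of the 17 genes of this kind under the rule, 9 had a susceptible change of at least 1 against the first CK susceptible library alone. Here too the choice used that library, which fixes the sign of this change and favours a large one.

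Most photosynthesis genes had changes of this direction. In this list 4 of 73 genes fell in susceptible maize, against 3.9% of all genes, and 0 were called for the interaction, like all other genes. Of 73 tested genes for photosystems and light-harvesting proteins, 49 (67.1%) were lower with BV-3 in susceptible and higher in resistant maize by sign, against 15.5% of all genes, and 0 the reverse. The list's median log2 change was -1.14 in susceptible and 0.846 in resistant maize, against 0.0656 and -0.0716 for all genes. A positive interaction at p under 0.05 was found in 24 members (32.9%, against 8.71% of all genes) and a negative one in 0. Light-harvesting proteins, which gather light for both photosystems, had a median interaction of 2.52 in 29 genes, and subunits of photosystem I and photosystem II had 2.17 in 20 and 1.88 in 24 genes. Without CK resistant library 2 these medians were 2.02, 1.65 and 1.37. The median resistant changes were then 0.889, 0.237 and 0.0629, in place of 1.41, 0.762 and 0.573. These genes belong to families with near-identical copies, so that reads could have been split between them.

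By library, the level of the photosynthesis list (the median over its members of log2(FPKM + 1), each centred on its mean over the 12 libraries) was 1.11, 0.79 and 1.19 in CK susceptible and -0.07, -0.52 and 0.19 in BV-3 susceptible libraries. In resistant maize it was 0.14, -3.11 and -0.25 in CK and 0.44, -0.61 and 0.69 in BV-3 libraries. The 3 CK susceptible libraries were the highest of the 12, including those that carry resistant-class markers. The second CK resistant library was far below all others. Without that library the list's median change in resistant maize was 0.333 in place of 0.846 and its median interaction 1.7 in place of 2.2. Without CK susceptible libraries 2 and 3 the median interaction was 2.26. The summed FPKM of the 112 leaf markers, which are in part the same genes, was 40505 to 53920 in CK susceptible, 17115 to 34275 in BV-3 susceptible, 1883 to 23443 in CK resistant and 14729 to 47155 in BV-3 resistant libraries. A change per leaf cell and a change in the share of leaf tissue cannot be told apart in these values.

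PSB28 of photosystem II (Zm00001eb141830) measured 76.2, 116 and 157 FPKM in CK susceptible and 41.2, 37.4 and 15.3 in BV-3 susceptible libraries, without overlap. In resistant maize it measured 75.4, 11.7 and 50.3 without and 108, 47.9 and 115 with BV-3, with overlap. The photosystem II protein W (Zm00001eb141870) followed the same order, with an interaction of 2.95 ± 0.99 against 2.98 ± 0.94 for PSB28. Without CK resistant library 2 the interactions were 2.52 for PSB28 and 2.45 for protein W. Geranylgeranyl diphosphate reductase (Zm00001eb254510), which makes the phytyl chain of chlorophyll, measured 458, 363 and 455 without and 211, 160.0 and 230.0 with BV-3 in susceptible, and 203, 25.0 and 175 without and 316, 142 and 457 with BV-3 in resistant libraries. Its interaction was 2.40 ± 0.99.

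Carbon fixation followed photosynthesis in part. Of 62 genes of the C4 and Calvin cycles, 22 (35.5%, against 8.71% of all genes) had a positive interaction at p under 0.05 and 2 (3.23%, against 4.96%) a negative one, and the median change was -0.776 in susceptible and 0.214 in resistant maize. Pyruvate, phosphate dikinase 2 (Zm00001eb349810), which belongs to the enzymes that regenerate the carbon acceptor of C4 leaves, fell in susceptible maize from 22.0, 65.4 and 62.6 FPKM to 4.6, 2.61 and 2.36. Resistant libraries measured 27.5, 1.94 and 20.6 without and 17.3, 4.47 and 29.0 with BV-3. Phosphoenolpyruvate carboxylase kinase 3 (Zm00001eb247580), of the kinases that activate the first enzyme of C4 fixation, had an interaction of 2.66 ± 0.80, with BV-3 and CK libraries that overlapped in susceptible maize. Some members of this list were caught by their name and lie outside carbon fixation.

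**Figure D3:**
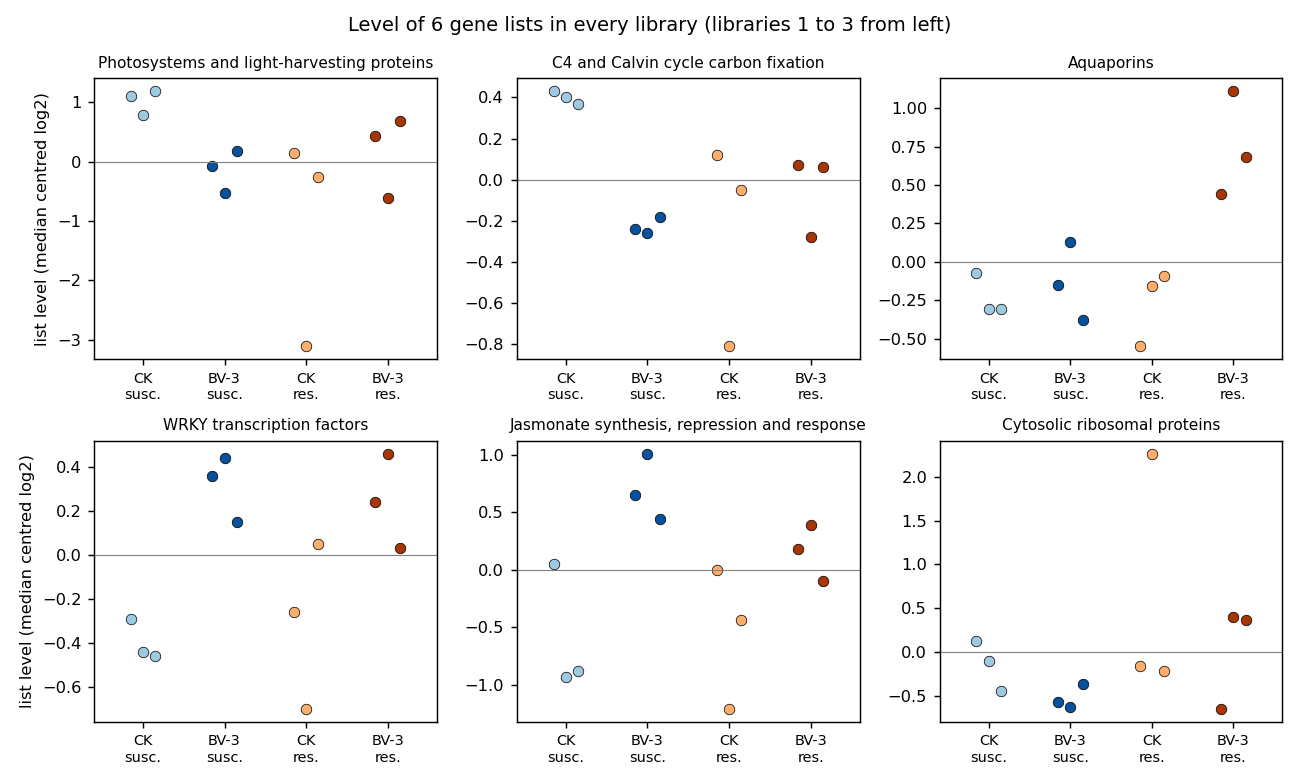
Level of 6 gene lists in each library, as the median over members of log2(FPKM + 1) centred on each gene's mean over the 12 libraries, with libraries 1 to 3 of a group from left. Photosynthesis levels were 0.79 to 1.19 in CK susceptible and -0.52 to 0.19 in BV-3 susceptible libraries, the aquaporin levels of the BV-3 resistant libraries were the highest of the 12, and the second CK resistant library lay at -3.11 for photosynthesis and 2.26 for ribosomal proteins.

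Genes higher with BV-3 in susceptible maize and little changed in resistant maize included transporters, an alternative oxidase and stress transcription factors. "Little changed" here means a fitted log2 change under 1, which does not show that no change took place. ABC transporter G family member 36 (Zm00001eb357950), a homologue of a transporter with a part in penetration resistance in Arabidopsis, rose from 0.213, 0.0609 and 0.0751 FPKM to 5.94, 13.5 and 5.85 in susceptible maize. Resistant maize was at 0.459, 0 and 1.55 without and 0.159, 0.586 and 0.237 with BV-3. The BV-3 susceptible libraries were the highest 3 of the 12. The interaction was -7.09 ± 1.81 and did not pass, the susceptible difference against CK susceptible library 1 alone was 4.77, and the class difference under BV-3 was -4.96.

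Alternative oxidase AOX3 (Zm00001eb071870), which lets mitochondrial respiration bypass part of the electron chain under stress, rose in susceptible maize from 0.969, 0.546 and 0.148 FPKM to 10.7, 26.4 and 103. Resistant maize measured 1.73, 0.887 and 2.7 without and 2.52, 6.01 and 0.884 with BV-3. The BV-3 susceptible libraries differed among themselves, library 3 being the highest, and none overlapped with another group. LHT1 (Zm00001eb261480), an amino acid transporter by its name, rose as well, with 21.6, 66.7 and 181 FPKM in BV-3 susceptible libraries against 3.75, 0.943 and 0.366 in CK. The homeobox genes liguleless 4 (Zm00001eb354880) and knotted related homeobox 5 (Zm00001eb264910), of a family that keeps meristem cells undifferentiated, had interactions of -5.69 ± 1.70 and -4.32 ± 1.11, and WRI1 (Zm00001eb195920), of the factors that turn on oil synthesis in seeds, had -4.21 ± 1.13. Both homeobox genes reached their CK resistant maximum in library 2, at 8.79 and 5.96 FPKM, the library with high markers of dividing tissue. Of the 167 genes of this kind under the rule, 131 had a susceptible change of at least 1 against the first CK susceptible library alone. The choice of genes without overlap used that library too, so it fixes the sign of this change and favours a large one. Class markers numbered 0, but edgeR could hardly estimate the interaction of susceptible-class markers, so they could hardly enter.

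WRKY factors, regulators of defence genes, were higher with BV-3 in both classes by their median, with log2 changes of 1.43 in susceptible and 0.644 in resistant maize. Of 127 tested, 13 rose in susceptible maize and 0 fell, against 2.3% and 3.9% of all genes. A negative interaction at p under 0.05 was found in 13 (10.2%, against 4.96% of all genes) and a positive one in 3 (2.36%, against 8.71%). The list's median interaction was -0.479, and -0.29 without CK susceptible libraries 2 and 3. For WRKY transcription factor 4 (Zm00001eb020400) the interaction was 6.31 ± 1.94, and 2.36 without those libraries. WRKY transcription factor 27 (Zm00001eb203940) rose from 1.95, 1.24 and 1.87 FPKM to 10.6, 15.3 and 7.7 in susceptible maize, and measured 3.87, 1.1 and 2.82 without and 2.85, 3.4 and 2.73 with BV-3 in resistant maize. The BV-3 susceptible libraries stood above all others, and the interaction was -2.45 ± 0.68. WRKY transcription factor 1 (Zm00001eb052670) rose from 0.537, 0.165 and 0.188 to 6.81, 14.7 and 43.3 FPKM, while resistant maize held 0.352, 0 and 0.255 without and 0.404, 0.895 and 0.189 with BV-3, a log2 change of 1.26 between overlapping groups.

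Jasmonate, ethylene and NAC genes had larger median changes in susceptible maize too. The medians were 1.46 against 0.675 for 77 jasmonate genes, 1.07 against 0.323 for 178 ethylene genes and 1.18 against 0.743 for 97 NAC factors. Negative interactions at p under 0.05 were found in 7 (9.09%), 15 (8.43%) and 8 (8.25%) of them, against 4.96% of all genes, and positive ones in 3 (3.9%), 9 (5.06%) and 1 (1.03%), against 8.71%. Without CK susceptible libraries 2 and 3 the median interaction went from -0.551 to 0.0441 for jasmonate, from -0.528 to -0.493 for ethylene and from -0.395 to -0.102 for NAC genes. In the first CK susceptible library the jasmonate list level was 0.05, against -0.93 and -0.88 in libraries 2 and 3. Ethylene-responsive factor-like protein 1 (Zm00001eb340140) rose from 1.57, 2.31 and 1.24 FPKM to 13.5, 11.2 and 8.38 in susceptible maize, with 2.8, 3.32 and 2.11 without and 2.47, 5.38 and 2.2 with BV-3 in resistant maize. NAC factor NAM-B2 (Zm00001eb334160) rose from 2.04, 3.44 and 0.661 to 7.0, 13.5 and 24.1, with 2.84, 1.3 and 5.14 without and 1.79, 1.06 and 0.478 with BV-3 in resistant maize, the CK and BV-3 resistant libraries overlapping. The factor bHLH041 (Zm00001eb284130) was at 0 FPKM in CK susceptible libraries 2 and 3 and reached 3.27, 7.19 and 12.1 with BV-3, against 0.595, 0 and 1.69 without and 0.243, 0.559 and 0.222 with BV-3 in resistant maize. The resistant changes of these last genes, -1.36 and -1.09, put them in the opposite class by size.

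Single defence genes of other families showed the same order. The NLR immune receptor gene PIK6-NP (Zm00001eb200740), of a class of intracellular receptors for pathogen effectors, rose from 4.19, 2.83 and 2.77 FPKM to 14.8, 15.1 and 17.5 in susceptible maize and measured 6.36, 2.32 and 5.68 without and 5.23, 5.92 and 4.52 with BV-3 in resistant maize. Trans-cinnamate 4-monooxygenase (Zm00001eb368900), an early enzyme of the phenylpropanoid pathway, rose from 10.9, 6.82 and 4.54 to 31.1, 45.8 and 30.5, with 14.0, 3.48 and 9.61 without and 9.36, 6.52 and 4.6 with BV-3 in resistant maize. The DIMBOA glucosyltransferase BX8 (Zm00001eb096940), which stores benzoxazinoid toxins as glucosides, rose from 3.65, 3.73 and 2.74 to 13.5, 12.8 and 15.6. For all 3 the BV-3 susceptible libraries stood above every other library, and interactions were -2.09 ± 0.49, -2.59 ± 0.74 and -1.76 ± 0.51. The benzoxazinoid list as a whole did not lean this way. Of its 32 tested genes, BX8 was the 1 (3.12%) with a negative interaction at p under 0.05, against 4.96% of all genes, and 3 (9.38%) had a positive one, against 8.71%, with a median interaction of 0.429. Those 3 are described as BX8 or BX8-like too. The interactions of Zm00001eb063070 and Zm00001eb094890 were 5.23 and 2.72, and Zm00001eb304060 was listed at 0 FPKM in the BV-3 susceptible libraries and at 0, 0.117 and 0.472 in CK. Glutathione S-transferase GSTU6 (Zm00001eb156150) had 303, 333 and 229 FPKM in BV-3 susceptible and 82.6, 9.36 and 8.71 in CK susceptible libraries, the first CK library lying above the others. Their whole lists were mixed. Of 84 glutathione S-transferases, 5 (5.95%, against 4.96% of all genes) had a negative interaction at p under 0.05 and 8 (9.52%, against 8.71%) a positive one. Of 119 phenylpropanoid genes, 8 (6.72%) had a negative and 7 (5.88%) a positive one.

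Genes lower with BV-3 in susceptible maize and little changed in resistant maize were the largest class at p under 0.01, with 773 genes. Of these, 264 were markers of the resistant class, which BV-3 susceptible libraries lack by definition. In 580 of the 773 (75.0%) the first CK susceptible library lay within a log2 difference of 1 of the BV-3 susceptible mean. The corresponding number was 42 of 225 (18.7%) for the genes higher with BV-3. A zinc finger BED domain protein of the RICESLEEPER type (NewGene_17548) had 0.081, 35.3 and 75.8 FPKM in the CK susceptible libraries and no counts in BV-3 susceptible ones, against 143, 78.3 and 95.5 without and 83.3, 148 and 119 with BV-3 in resistant maize. It was at least 1090-fold lower than the CK susceptible mean and at least 2.39-fold lower than the first CK susceptible library. DEAD-box RNA helicase 7 (Zm00001eb391860) had 0.0851, 54.6 and 37.7 FPKM in CK susceptible and 0, 0.0756 and 0 in BV-3 susceptible libraries, and its interaction of 9.02 ± 2.17 was 0.71 without CK susceptible libraries 2 and 3. A quinoprotein amine dehydrogenase gene (NewGene_7974), apyrase 2 (Zm00001eb223700) and the vacuolar sorting gene VPS9A (Zm00001eb015830) showed the same arrangement. Each was at most 0.0617 FPKM in the first CK susceptible library and had no counts in BV-3 susceptible libraries, with at least 1.63 FPKM in CK susceptible libraries 2 and 3.

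Other genes were high in all CK susceptible libraries. LOB domain-containing protein 37 (Zm00001eb051620), of a family that represses anthocyanin and nitrogen genes in Arabidopsis, fell from 6.56, 23.7 and 12.7 FPKM to 0.0516, 0.036 and 0. In resistant maize it was 2.63, 0.314 and 6.71 in CK and 0.221, 0.0631 and 6.5 in BV-3 libraries, which overlapped. Phosphate transporter PHO1-3 (Zm00001eb281630), of the proteins that load phosphate into the xylem, fell from 19.4, 30.0 and 30.3 to 2.59, 2.62 and 3.65, with 8.07, 2.28 and 7.85 without and 9.68, 2.68 and 10.4 with BV-3 in resistant maize. Its interaction was 3.63 ± 0.83, and the difference against the first CK susceptible library alone was -2.67. A CBL-interacting protein kinase (Zm00001eb195230), which acts downstream of calcium sensors, fell from 56.5, 21.8 and 22.1 to 0.218, 0.957 and 0.788, with 11.5, 13.0 and 22.9 without and 1.2, 1.79 and 17.9 with BV-3 in resistant maize, where library 3 of both groups was the highest and the log2 change was -1.06. Thaumatin-like protein 1 (Zm00001eb332100) and pathogenesis-related protein 3 (Zm00001eb167690), both antimicrobial defence proteins, stood at 11.8, 15.1 and 14.6 and 11.2, 11.4 and 11.0 FPKM in CK susceptible libraries and at 4.28, 2.84 and 3.06 and 2.12, 3.36 and 1.83 with BV-3. These differences did not pass the adjusted threshold, and interactions were 2.61 ± 0.75 and 3.08 ± 0.82. The list of pathogenesis-related and other antimicrobial proteins leaned the other way, with a median change of 0.752 in susceptible maize and a median interaction of -0.588. Of its 141 tested genes, 13 (9.22%, against 4.96% of all genes) had a negative interaction at p under 0.05 and 5 (3.55%, against 8.71%) a positive one. The median interaction was 0.12 without CK susceptible libraries 2 and 3 and CK resistant library 2.

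Genes whose change reached a log2 of 1 in resistant maize alone were fewer, with 48 positive and 23 negative interactions at p under 0.01. None of their resistant changes or interactions passed the adjusted threshold. Protein BIC1 (Zm00001eb242760), which in Arabidopsis blocks the blue light receptors called cryptochromes, measured 0.64, 0.285 and 1.54 FPKM in CK resistant and 29.1, 14.1 and 19.8 in BV-3 resistant libraries. In susceptible maize it measured 2.16, 5.38 and 7.4 without and 13.3, 12.6 and 3.49 with BV-3. The lowest BV-3 resistant library lay above all CK resistant ones, and the resistant change was 4.76 ± 0.80. The interaction was 3.81 ± 1.00, and 2.65 without CK susceptible libraries 2 and 3, and the class difference under BV-3 was 0.92.

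The 60 kDa jasmonate-induced protein (Zm00001eb060190) had 0.159, 0.0275 and 0.304 FPKM in CK resistant and 2.73, 17.0 and 10.5 in BV-3 resistant libraries, against 3.32, 0.178 and 0.0976 without and 2.08, 0.455 and 0.661 with BV-3 in susceptible maize. Chloroplastic fatty acid desaturase 4 (Zm00001eb413170), which acts on a lipid of chloroplast membranes, had 1.27, 0.0896 and 0.179 without and 25.6, 6.95 and 26.3 with BV-3 in resistant maize, against 3.64, 4.38 and 8.05 without and 12.2, 7.08 and 1.39 with BV-3. For both genes the resistant groups did not overlap and the susceptible groups did. UDP-glycosyltransferase 73C5 (Zm00001eb170510), whose Arabidopsis namesake inactivates brassinosteroids and a fungal toxin, had an interaction of 3.62 ± 1.13. Alkaline alpha galactosidase 3 (Zm00001eb033870), of the enzymes that break down raffinose sugars, had 3.34 ± 0.90. Jasmonate O-methyltransferase (Zm00001eb267640), which makes the volatile methyl jasmonate, measured 0.622, 0.293 and 0.746 in CK resistant and 2.74, 6.0 and 2.48 in BV-3 resistant libraries. In susceptible libraries it measured 4.88, 3.61 and 3.54 without and 2.82, 7.72 and 2.3 with BV-3, overlapping.

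Immune receptor genes of the NLR type were among them. RPM1 (Zm00001eb164890), named after an Arabidopsis receptor that detects the modification of a host protein, measured 1.1, 0.39 and 1.5 FPKM in CK resistant and 7.7, 4.72 and 6.52 in BV-3 resistant libraries. In susceptible maize it measured 2.37, 2.61 and 2.92 without and 2.56, 1.82 and 1.68 with BV-3, and the interaction was 3.17 ± 0.69. Every BV-3 resistant library lay above the 9 other libraries. RGA5 (Zm00001eb164940), named after a rice receptor that binds fungal effectors, measured 1.08, 0.26 and 1.7 without and 10.8, 4.1 and 6.72 with BV-3 in resistant maize, and 1.34, 2.08 and 1.36 without and 1.05, 0.353 and 1.41 with BV-3 in susceptible maize. Of 125 NLR genes, 17 (13.6%) had a positive interaction at p under 0.05, against 8.71% of all genes, and 5 (4.0%) a negative one, against 4.96%. Class markers made up 10 of the 125, against 1.71% of all genes. The list's median interaction was 0.0806, and -0.142 without CK susceptible libraries 2 and 3.

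Aquaporins had the highest median change in resistant maize of the 40 lists with all libraries in the fit. The median over 37 genes was 1.19 in resistant and 0.127 in susceptible maize, and 1.4 in resistant maize without CK resistant library 2. Of the 37, 6 (16.2%, against 8.71% of all genes) had a positive interaction at p under 0.05 and 0 a negative one. The plasma membrane type, PIP, had a positive resistant change in 13 of 13 genes and a median of 1.26, and the vacuolar type, TIP, in 10 of 13 with a median of 1.62. The median resistant change of all genes was -0.0716. In susceptible maize the change was positive in 8 of 13 PIP and 7 of 13 TIP genes, with medians of 0.275 and 0.1. A positive interaction at p under 0.05 was found in 3 PIP genes and 1 TIP gene. PIP1-5 (NewGene_12178) measured 10.0, 28.5 and 9.35 FPKM in CK resistant and 67.7, 122 and 85.5 in BV-3 resistant libraries, and 37.5, 16.1 and 33.8 without and 22.7, 35.3 and 6.22 with BV-3 in susceptible maize. TIP2-1 (Zm00001eb186570) measured 14.4, 45.0 and 15.0 without and 97.2, 99.7 and 110.0 with BV-3 in resistant maize, and 40.7, 49.7 and 61.2 without and 6.34, 52.4 and 3.86 with BV-3 in susceptible maize. The BV-3 resistant libraries of both genes were the highest 3 of the 12.

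Single nitrogen and clock genes also had a larger change in resistant maize, while others did not. The median changes of the whole lists in resistant and susceptible maize were 0.26 and 0.293 for nitrogen genes. They were 0.665 and 0.0785 for morning clock and -0.66 and 0.0373 for evening clock genes. Ammonium transporter 1;2 (Zm00001eb247430) measured 0.242, 0.33 and 0.12 FPKM in CK resistant and 2.17, 4.43 and 1.68 in BV-3 resistant libraries, against 1.36, 1.81 and 1.74 without and 2.87, 1.24 and 1.89 with BV-3 in susceptible maize. The CK resistant libraries were the lowest 3 of the 12, and the interaction was 3.26 ± 0.77. Nitrate reductase (Zm00001eb176470), the first enzyme of nitrate assimilation, had 3.20 ± 1.06, and 9 of 55 nitrogen genes (16.4%, against 8.71% of all genes) had a positive interaction at p under 0.05 and 0 a negative one. A positive interaction can also come from a lower level in susceptible maize. By size, 22 of the 55 changed in susceptible maize alone and 3 in resistant maize alone, against 9520 and 3522 of the 34291 genes tested. REVEILLE 2 (Zm00001eb228670), a MYB-related gene of the morning phase of the circadian clock, measured 10.0, 3.36 and 11.4 without and 45.0, 30.6 and 53.3 with BV-3 in resistant maize, and 28.3, 25.5 and 26.2 without and 25.0, 30.5 and 5.47 with BV-3 in susceptible maize. Other morning genes changed mainly in susceptible maize. There REVEILLE 8 (Zm00001eb065440) measured 5.61, 0.649 and 0.651 without and 58.5, 60.2 and 30.5 with BV-3, and its interaction was -3.72 ± 1.58. REVEILLE 1 (Zm00001eb428070) had log2 changes of -2.87 in susceptible and -0.38 in resistant maize. MYBS3 (Zm00001eb161460), of factors that repress sugar-starvation genes in rice, had 8.15, 1.78 and 13.2 without and 61.9, 31.4 and 68.5 with BV-3 in resistant maize, and an interaction of 4.05 ± 1.06. BV-3 susceptible library 3 was low in REVEILLE 2 and MYBS3 and high in evening clock genes, with gigantea1 (Zm00001eb337600) at 9.64, 7.19 and 229 FPKM and gigantea2 (Zm00001eb122110) at 1.39, 0.796 and 81.1 in the BV-3 susceptible libraries. The part of harvest time in these values was not tested.

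Genes lower with BV-3 in resistant maize alone included a lipid kinase, protein phosphatases and pigment enzymes. A putative 1-phosphatidylinositol-3-phosphate 5-kinase, FAB1D (Zm00001eb076550), measured 3.83, 4.04 and 9.57 FPKM in CK resistant and 1.59, 0.736 and 0.465 in BV-3 resistant libraries, and 0.292, 0.42 and 0.352 without and 0.581, 0.397 and 0.999 with BV-3 in susceptible maize. The CK resistant libraries were the highest 3 of the 12, and the interaction was -3.37 ± 0.80. Another gene described as protein phosphatase 2C 68 (Zm00001eb309920) measured 7.7, 2.64 and 23.5 without and 1.93, 1.24 and 0.621 with BV-3 in resistant maize, with an interaction of -3.29 ± 0.99. Anthocyanidin 3-O-glucosyltransferase 2 (Zm00001eb322210), of the enzymes that make anthocyanins stable, measured 2.08, 0.798 and 3.23 without and 0.151, 0.0742 and 0.0735 with BV-3 in resistant maize, and 1.18, 5.58 and 0.979 without and 2.45, 5.22 and 4.99 with BV-3 in susceptible maize. The BV-3 resistant libraries were the lowest 3 of the 12.

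Chlorophyllide a oxygenase (Zm00001eb089520), which makes chlorophyll b, ran against the photosynthesis list. It measured 23.0, 7.92 and 21.8 FPKM in CK resistant and 5.77, 4.43 and 7.12 in BV-3 resistant libraries, and 24.5, 13.4 and 9.64 without and 20.9, 26.6 and 28.8 with BV-3 in susceptible maize. The BV-3 resistant libraries were the lowest 3 of the 12, and the interaction was -2.18 ± 0.67. O-fucosyltransferase 35 (Zm00001eb314260), NUCLEAR FUSION DEFECTIVE 4 (Zm00001eb375010) and the mitochondrial import subunit TIM50 (Zm00001eb353050) had interactions of -1.69 ± 0.45, -1.67 ± 0.48 and -2.68 ± 0.77. TIM50 reached 21.3 FPKM in the second CK resistant library against 5.70 and 5.44 in the others, and its interaction was -1.75 without it.

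**Figure D4:**
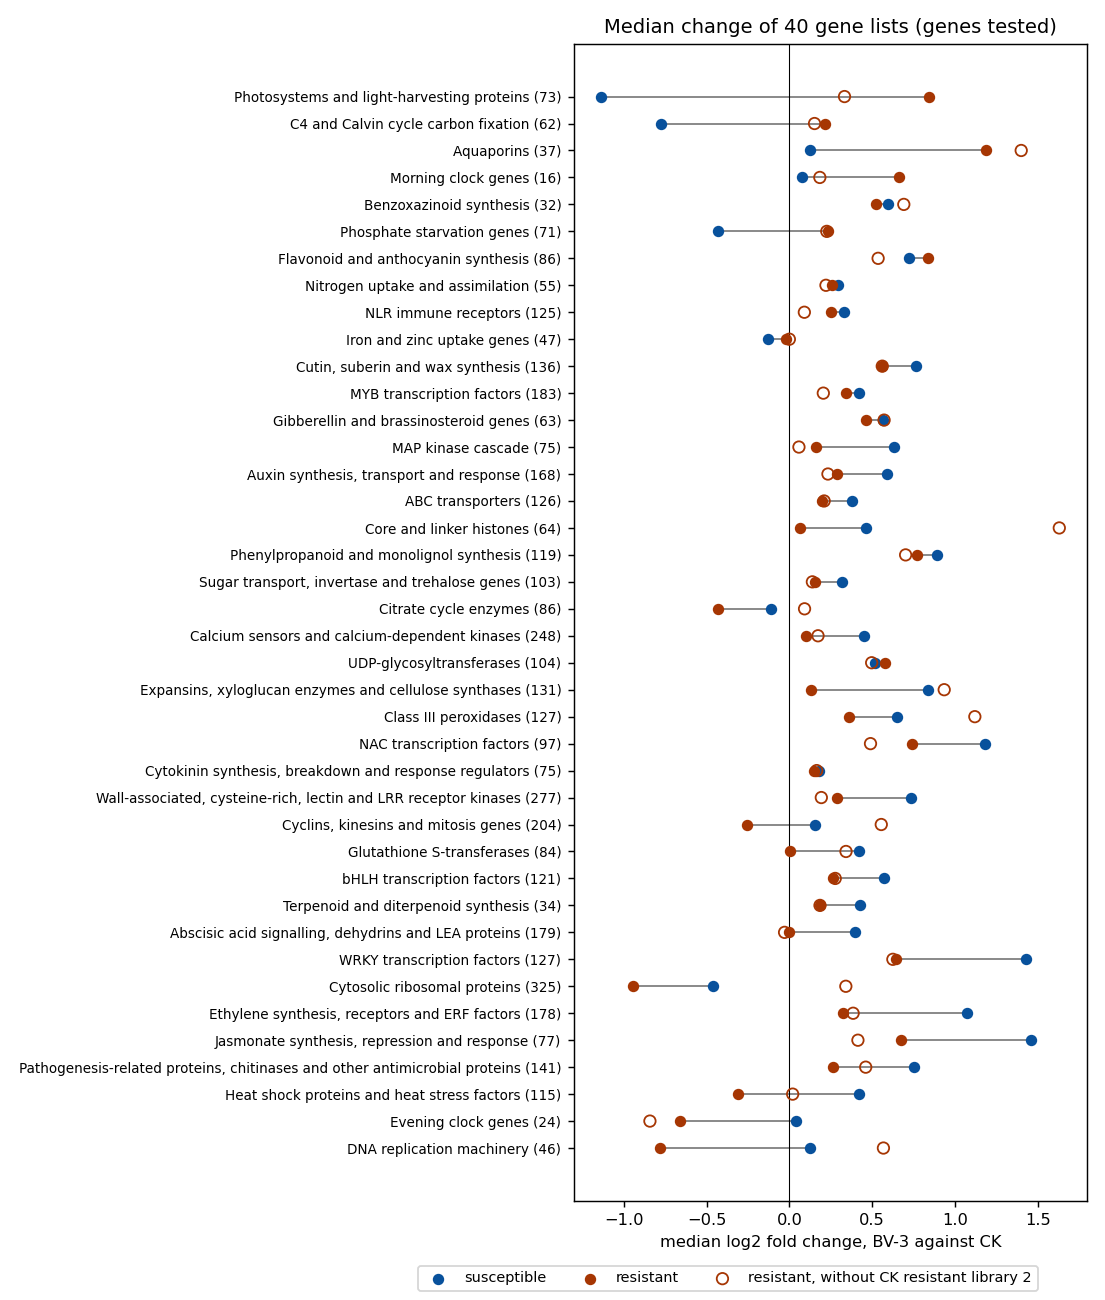
Median log2 fold change of BV-3 against CK over the tested members of 40 gene lists in susceptible (blue) and resistant maize (brown), with open circles for resistant maize without CK resistant library 2, ordered by median interaction. Photosystems and light-harvesting proteins span -1.14 to 0.846, aquaporins 0.127 to 1.19 and WRKY factors 0.644 to 1.43, and the open circles of histones, ribosomal proteins and DNA replication genes lie far from the filled ones.

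The 357 genes under the rule were chosen by their p and by libraries without overlap, using all 12 libraries. A fit without CK susceptible libraries 2 and 3 uses the remaining libraries again. What it keeps of these genes is thus largely fixed by the choice and is no separate test of them. Interaction sizes in it differed, from 9.02 to 0.71 for DEAD-box RNA helicase 7 and from -5.10 to -6.70 for protein phosphatase 2C 37. In this fit 1 library stands for CK susceptible and is taken to vary like the libraries of the other groups.

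**Figure D5:**
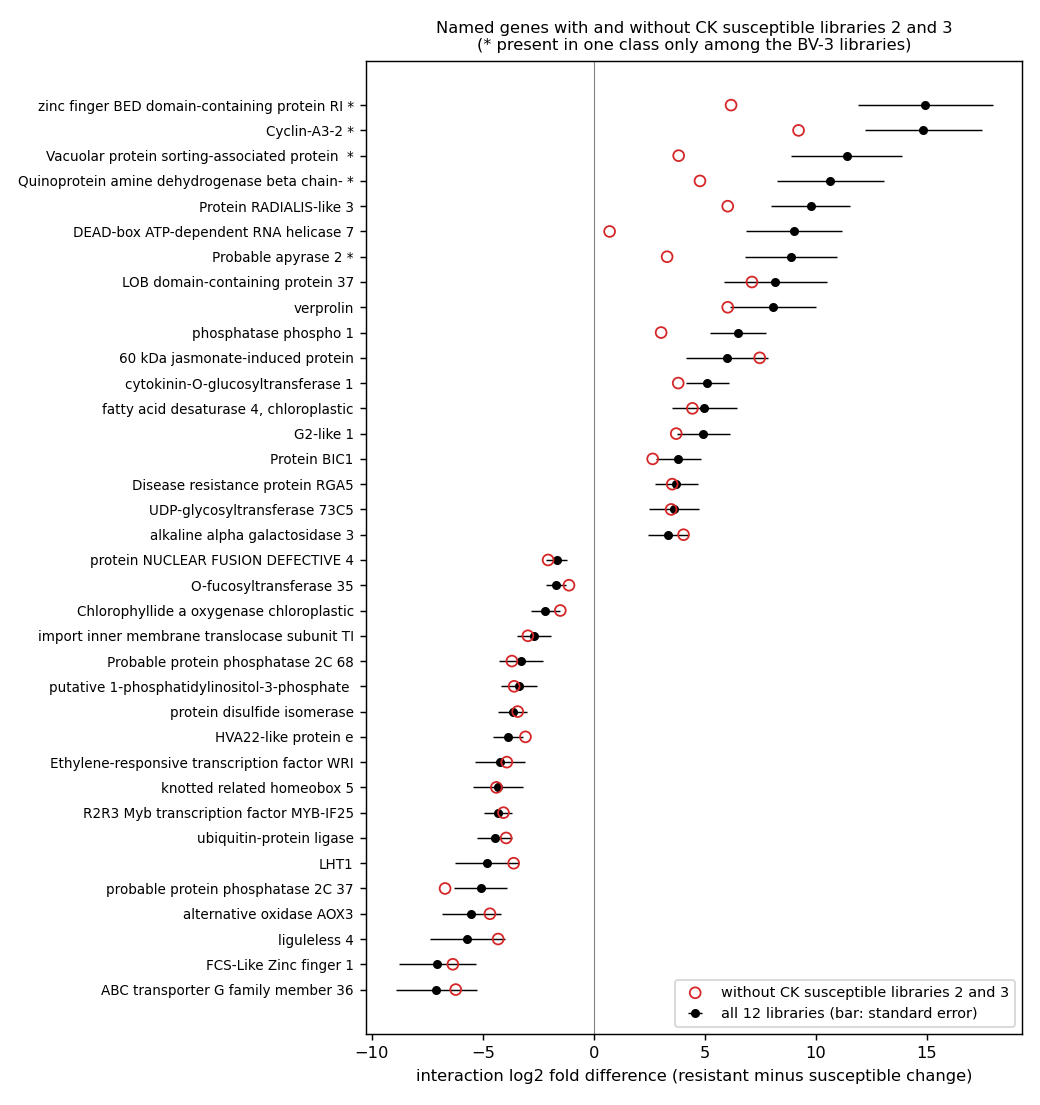
Interaction log2 fold difference of the 36 genes named by rule, with all 12 libraries (filled points, bars show the standard error) and without CK susceptible libraries 2 and 3 (open circles). The class marker Cyclin-A3-2 moves from 14.83 to 9.22, and MYB-IF25 from -4.32 to -4.07.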

How the data were processed

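The authors deposited 1 table with a raw count and an FPKM value per gene and library, per the file headers. Counts were whole numbers, and FPKM values were normalised by the authors to gene length and mapped fragments. Per the labels' protocols, poly(A) RNA was sequenced from strand-specific libraries in paired reads. The submitters' processing notes name the genome B73 RefGen, version 4. No source used here names the aligner, the counter or its use of strand, so near-identical, overlapping or antisense genes could share reads, and no coordinates are given. Names come from the table's descriptions, which 30416 genes carry. Of 52934 lines, 2 named no gene and were dropped.

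Counts of all 12 libraries were fitted in edgeR 4.0.16 (R 4.3.3) with TMM scaling, its default filter, 4 group means and the quasi-likelihood test. Calls took an adjusted p (Benjamini-Hochberg) under 0.05, and the common biological coefficient of variation was 0.682. Standard errors derive from the F value. DESeq2 1.42.0 and limma 3.58.1 on log2(FPKM + 1) were alternatives, as were other scalings and filters, a replicate block and left-out libraries. The 40 gene lists are search patterns over descriptions, some members of which lie outside the theme. The genes described, the lists and the sub-families within them were chosen with earlier results of these data known. Since no interaction was called, the genes to name were drawn from those at an unadjusted p under 0.01. Named genes are the 6 with the largest interaction per class and direction and up to 4 per list with the smallest p and at least 1 FPKM, from which examples were taken. The genes called by limma are named in addition. Replicates differed far beyond sampling noise (mean chi-square per gene 67.6 to 457, where 1 is sampling noise), and nothing says whether they came from separate plants, so p-values measure the spread between these libraries. A bound on a fold takes 3 counts per library as the floor and covers counting error only.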

Additional observations from a re-analysis of the deposited data

Results flagged for a closer look

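In 256 genes all BV-3 libraries lay on one side of CK in susceptible maize and on the opposite side in resistant maize. The interaction tested this difference across all genes, and none of them passed an adjusted p under 0.05 in edgeR. Among the named genes of this kind, the interaction log2 differences below zero were -7.05 for FCS-like zinc finger 1, -5.10 for protein phosphatase 2C 37, -4.82 for Heat stress transcription factor A-3, -4.47 for the ubiquitin-protein ligase, -4.32 for MYB-IF25, -3.87 for HVA22-like protein e and -3.66 for the protein disulfide isomerase. They were -2.70 for Expansin-B4, -2.68 for TIM50 and -1.84 for mitogen-activated protein kinase kinase kinase 1. Those above zero were 14.83 for Cyclin-A3-2, 9.76 for RADIALIS-like 3, 8.05 for verprolin, 6.48 for phosphatase phospho 1, 5.27 for cysteine-rich receptor-like kinase 10, 5.11 for cytokinin-O-glucosyltransferase 1 and 4.93 for G2-like 1. They were 4.71 for PIP2-3, 3.96 for chloroplastic malate dehydrogenase, 3.52 for PHL6 and 2.94 for the auxin efflux carrier 5a.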

How the results depend on the processing

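The count of genes called for the interaction, 0 in edgeR, was 1706 in DESeq2, 2 in limma on log2(FPKM + 1) and 1 on log2(FPKM + 0.1), and 0 to 2151 when 1 library was left out. The 2151 calls came without CK susceptible library 1, and 357 of them (16.6%) were class markers. In susceptible maize the 2125 calls became 7010 in DESeq2, 0 without CK susceptible libraries 2 and 3, 1 also without CK resistant library 2, and 0 to 7139 when 1 library was left out. In resistant maize the 0 calls became 1044 in DESeq2, 6 and 5 in limma with 1 and 0.1 added, and 0 to 3 when 1 library was left out. The 1424 genes at an unadjusted interaction p under 0.01 became 2917 in DESeq2, 305 without CK susceptible libraries 2 and 3, 611 also without CK resistant library 2, and 678 to 3438 when 1 library was left out. Changes of scaling and of the low-count filter left all 4 counts within 1.5 times. The cause of these shifts was not tested. The genes in the text were mostly chosen for a large interaction or a small p in these same libraries, which favours a stable sign. Of 81 of them, 2 changed the sign of the interaction under any of 23 alternatives. Without 1 library, gigantea1 ranged from -3.77 to 0.05 and gigantea2 from -4.69 to 0.53, both positive only without BV-3 susceptible library 3. Of 920 list medians under alternatives, 163 moved by more than the spread between replicates.

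With the replicate number as a block, 546 genes were called in susceptible maize, and 0 for the interaction, of which 4629 had an unadjusted p under 0.05. Not every pair of libraries of equal number had a correlation of deviations over 0.1 (-0.135 to 0.413, with 0.331 for libraries 1 and 0.413 for libraries 2 of the resistant groups), so the numbers were not taken to pair the samples.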

Other observations

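Ribosomal, replication and histone genes had medians that depended on 1 library. Over 325 tested ribosomal protein genes the median interaction was -0.51 with all libraries and 0.838 without CK resistant library 2, whose list level was 2.26 against -0.65 to 0.4 in the others. The members with an unadjusted p under 0.05 went the other way from the median, 26 (8.0%) positive and 2 (0.615%) negative, against 8.71% and 4.96% of all genes. DNA replication genes moved from -0.966 to 0.566 and core and linker histones from -0.188 to 1.31. Histones had 0 of 64 members at an unadjusted p under 0.05 in either direction. Phosphate starvation genes had a positive interaction at p under 0.05 in 11 of 71 (15.5%, against 8.71% of all genes) and a negative one in 3 (4.23%, against 4.96%). Calcium sensor and calcium-dependent kinase genes had a negative one in 23 of 248 (9.27%, against 4.96%) and a positive one in 11 (4.44%, against 8.71%).

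The gene Zm00001eb051020, which has no informative description and was picked after its values were seen, had 0, 31.1 and 0 FPKM in the CK susceptible libraries, 117, 34.7 and 81.6 in BV-3 susceptible, 22.8, 22.3 and 40.7 in CK resistant and 31.1, 29.9 and 20.5 in BV-3 resistant libraries. It was the single gene called for the interaction when CK susceptible library 2 was left out.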
